A study of Homo sapiens with 4 samples.

Results

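The transcripts of costimulatory and coinhibitory receptors of T cells were followed in a human cell line after knockdown of FYB1, an adaptor protein of T cell receptor signalling. The 8 receptors are CD28, TMIGD2, ICOS, CTLA4, PDCD1, BTLA, CD27 and TNFRSF4, of which 7 have a row among the 28274 genes of the deposited table. CTLA4 was not analysed here beyond its sequence and position. They were taken by gene symbol, and the set was selected on the difference in FPKM of CD28 and TMIGD2 between these same libraries, so differences of the receptors between the groups are described below and not tested. The compared groups are 2 libraries of J-gammal cells with FYB1 knockdown, titled sh, and 2 libraries of J-gammal cells described as untreated, with the genotype entry none and the letters NC in their titles. The labels do not say whether the controls carry a construct, whether the knockdown libraries share a construct, or whether the libraries of a group come from separate cultures, so a p-value here sets a difference against library-to-library spread that may be purely technical. Values are FPKM, which are reads per kilobase of exon relative to a library total set by the authors.

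A T cell needs a second signal beside that of its antigen receptor, and these surface receptors set its strength. CD28 binds CD80 and CD86 on antigen-presenting cells and passes the signal to phosphoinositide 3-kinase (PI3K) and NF-kappaB. ICOS and TMIGD2 are activating relatives of CD28, while CTLA4, PDCD1 (the receptor PD-1) and BTLA are inhibitory. CD27 and TNFRSF4 (the receptor OX40) are members of the TNF receptor family and signal through TRAF adaptors.

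The receptors differ in the short stretch of the cytoplasmic tail that binds the signalling protein. The coding sequence of that stretch is shown for each receptor in which it was found. The motifs alone do not separate activating from inhibitory receptors, since CD28, ICOS and CTLA4 share the first pattern below. Windows are 5′ to 3′ on the coding strand, read from GENCODE 29 transcripts (hg38), with the codons of the motif in capitals and 15 flanking bases in lower case on each side. In the first set the capitals encode a tyrosine, any 2 residues and a methionine, the pattern that binds PI3K. In CTLA4 the same tyrosine is also bound by the clathrin adaptor that takes the receptor from the surface.
CD28 (chr2:203734805-203734846, plus strand, exon 4, residues 191 to 194): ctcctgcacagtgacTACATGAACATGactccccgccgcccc
ICOS (chr2:203957820-203957861, plus strand, exon 4, residues 180 to 183): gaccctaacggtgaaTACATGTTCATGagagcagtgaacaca
CTLA4 (chr2:203872726-203872767, plus strand, exon 4, residues 201 to 204): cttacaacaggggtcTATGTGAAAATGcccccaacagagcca

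In the second set the capitals encode the inhibitory tyrosine motif, read here as serine, isoleucine, valine or leucine, any residue, tyrosine, any 2 residues, and isoleucine, leucine or valine.
PDCD1 (chr2:241851232-241851279, minus strand, exon 5, residues 221 to 226): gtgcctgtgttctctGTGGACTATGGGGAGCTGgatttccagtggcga
BTLA (chr3:112466183-112466230, minus strand, exon 5, residues 255 to 260): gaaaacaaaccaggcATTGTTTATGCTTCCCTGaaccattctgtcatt

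In the third set the capitals encode a proline, any residue, a glutamine and a glutamate, a pattern of TRAF binding.
CD27 (chr12:6451330-6451371, plus strand, exon 6, residues 246 to 249): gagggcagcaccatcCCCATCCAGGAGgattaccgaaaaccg
TNFRSF4 (chr1:1211579-1211620, minus strand, exon 7, residues 262 to 265): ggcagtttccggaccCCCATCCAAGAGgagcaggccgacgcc

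PDCD1 and BTLA also carried the switch motif, a threonine, any residue, tyrosine, any 2 residues and valine or isoleucine, at residues 246 to 251 and 280 to 285. TMIGD2 carried none of the 4 patterns in the 113 residues after its membrane segment. The patterns are short, and in the last 70 residues of 19498 coding genes they occurred in 4.32% (PI3K), 9.80% (inhibitory), 1.06% (switch) and 1.25% (TRAF). The tails searched in the receptors ran from 38 residues in ICOS to 113 in TMIGD2 and BTLA, so these shares are not for windows of the same length.

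FYB1, the knockdown target, had 6.18 and 4.53 FPKM in the knockdown libraries and 17.6 and 20.1 FPKM in the controls. The log2 fold change was -1.65 ± 0.15 (SE; limma-trend adjusted p = 0.0398), and this call ended without knockdown library 1 or 2 (adjusted p = 0.203 and 0.0555). It stood by limma-voom on recovered reads (adjusted p = 0.000419). Libraries held 16693113 to 20251864 recovered reads. All 12 T cell markers examined averaged at least 1 FPKM, with summed levels of 1147 and 1396 FPKM in knockdown and 1433 to 1535 FPKM in control libraries. Of 6 B cell markers only CD79A did so (11.1 and 15.8 FPKM in knockdown, 24.5 and 21.2 FPKM in control), and 0 of 6 myeloid, 0 of 4 NK and 0 of 4 epithelial and stromal markers in the table did. CD3D, a subunit of the receptor complex (224 and 299 FPKM in knockdown, 478 and 419 FPKM in control), and CD79A fell by limma-voom on recovered reads (adjusted p = 0.0200 and 0.0297). Both calls ended without knockdown library 1 (adjusted p = 0.0703 and 0.113) and without control 1 (adjusted p = 0.168 and 0.167), and that of CD79A also with summed reads as library size (adjusted p = 0.0592). Mitochondrial genes took 4.92% and 5.14% of reads in knockdown and 4.09% and 4.03% in control libraries. The part of these differences in the values below was not tested.

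CD28, the most abundant of the receptors in knockdown cells, had a higher level there than in controls. Its level was 11.4 FPKM (1031 reads) in knockdown library 1 and 9.60 FPKM (960 reads) in knockdown library 2, against 6.05 FPKM (492 reads) in control 1 and 5.80 FPKM (476 reads) in control 2. Both knockdown libraries lay above both controls, as they did for 26.0% of the 13172 genes that average 1 FPKM or more and enter the fit across genes. The mean was 10.5 ± 1.31 FPKM in knockdown and 5.93 ± 0.174 FPKM in control cells (SD, n = 2 each), a ratio of 1.78. The difference in log2(FPKM + 1) was 0.73, and 214 of the 13171 other genes at that level of expression had a larger one. It was between 0.61 and 0.85 without any 1 library. In bulk RNA, more cells that express a gene and more of its RNA per cell cannot be told apart.

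TMIGD2, the receptor for the ligand HHLA2, had the opposite pattern. Its level was 3.70 FPKM (86 reads) in knockdown library 1 and 4.41 FPKM (114 reads) in knockdown library 2, against 12.2 FPKM (256 reads) in control 1 and 9.91 FPKM (210 reads) in control 2. Both knockdown libraries lay below both controls, as they did for 34.6% of the 13172 genes. The mean was 4.05 ± 0.505 FPKM in knockdown and 11.05 ± 1.61 FPKM in control cells (SD, n = 2 each), a ratio of 0.367. The difference in log2(FPKM + 1) was -1.25, and 37 of the 13171 other genes had a lower one. It was between -1.39 and -1.11 without any 1 library.

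The pair thus changed places in abundance per length. The ratio of CD28 to TMIGD2 in FPKM was 3.10 and 2.18 in knockdown libraries 1 and 2, against 0.497 and 0.586 in controls 1 and 2. The summed level of both was 15.1 and 14.0 FPKM in the knockdown libraries and 18.2 and 15.7 FPKM in the controls. CD28 supplied 84.7% of all reads on the 7 receptors in knockdown and 62.0% in control cells.

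**Figure D1:**
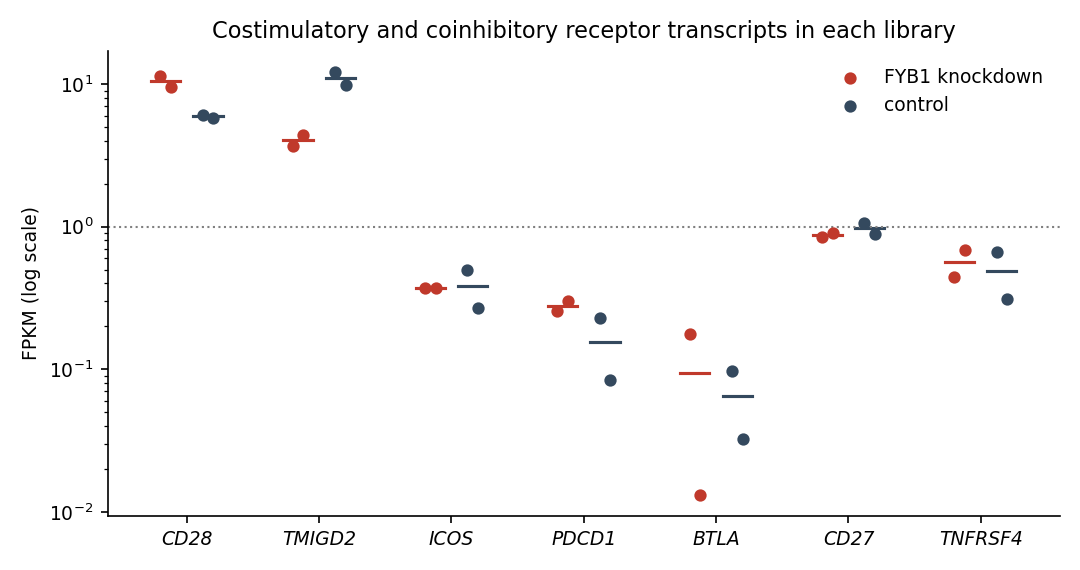
FPKM of the 7 receptors (log axis) in each library, with FYB1 knockdown at the left and control at the right of each gene. Points are libraries, short lines are group means (n = 2 each) and the dotted line marks 1 FPKM. CD28 and TMIGD2 lie above that line in every library, with no overlap between groups, while the other receptors lie at or below 1.06 FPKM.

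The other 5 receptors averaged below 1 FPKM and did not enter the fit across genes. Their levels lay between 0.0132 and 1.06 FPKM, from 1 to 26 reads a library, and 1 read was worth 0.0132 to 0.0426 FPKM for these genes. At such depth only large differences could be seen. The interval given with each ratio below is the exact 95% Poisson interval of the read ratio, scaled by the authors' totals. It covers counting error and not the spread between libraries.

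ICOS, which binds ICOSLG and supports helper T cells, had 0.369 and 0.369 FPKM in the knockdown libraries (18 and 20 reads) and 0.4996 and 0.270 FPKM in the controls (22 and 12 reads). The knockdown values fell between those of the controls. The ratio of knockdown to control was 0.960 (interval 0.589 to 1.57).

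Among the inhibitory receptors PDCD1 had 0.257 and 0.3003 FPKM in knockdown libraries 1 and 2 (10 and 13 reads) and 0.227 and 0.0845 FPKM in controls 1 and 2 (8 and 3 reads). The groups did not overlap, but the ratio of 1.797 had an interval of 0.841 to 4.08, so no difference was detectable at this depth. BTLA, the receptor for TNFRSF14, had 0.176 and 0.0132 FPKM in the knockdown libraries (12 and 1 reads) and 0.0975 and 0.0322 FPKM in the controls (6 and 2 reads). Its groups overlapped, and the ratio was 1.40 (interval 0.536 to 3.89).

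CD27, the receptor for CD70, stood closest to the expression limit. It had 0.846 and 0.900 FPKM in the knockdown libraries (22 and 26 reads) and 1.06 and 0.887 FPKM in the controls (25 and 21 reads), and the groups overlapped. The ratio was 0.897 (interval 0.586 to 1.37). Its reads are uncertain, because the antisense gene CD27-AS1 shares 6701 bases with the locus of CD27, introns included. The overlap of their exons was not computed, and whether strand was used in counting is not stated. How far reads of CD27-AS1 enter the values of CD27 is therefore not known. CD27-AS1 had 4.56 and 5.31 FPKM in the knockdown libraries and 5.76 and 5.90 FPKM in the controls. None of the other 6 receptor genes overlaps an annotated gene of GENCODE 29.

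TNFRSF4, which binds TNFSF4, had 0.441 and 0.681 FPKM in the knockdown libraries (14 and 24 reads) and 0.663 and 0.311 FPKM in the controls (19 and 9 reads). The groups overlapped, and the ratio was 1.17 (interval 0.697 to 1.97).

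**Figure D2:**
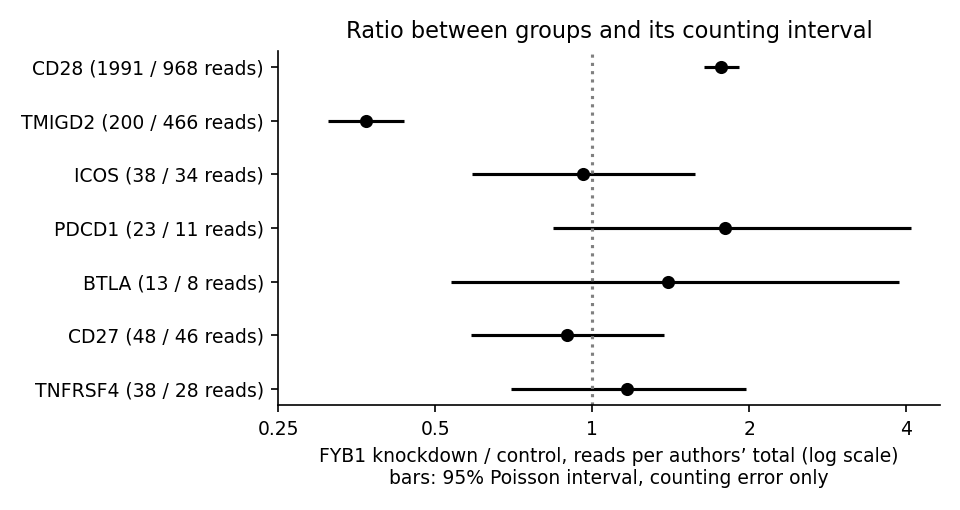
Ratio of knockdown to control in reads per authors' total (log axis), with its exact 95% Poisson interval and the reads summed over 2 libraries a group (knockdown / control). The bars show counting precision and no test: they are narrow for CD28 (1.64 to 1.91) and TMIGD2 (0.311 to 0.436), whose differences chose the set, and wide for the 5 receptors with few reads.

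By mean FPKM the order in knockdown cells was CD28, TMIGD2, CD27, TNFRSF4, ICOS, PDCD1 and BTLA. In control cells TMIGD2 came before CD28 and the rest of the order was the same. Neighbours in that order overlapped in range for TNFRSF4 with ICOS and for PDCD1 with BTLA in controls, and for no other pair of neighbours in either group. The difference in log2(FPKM + 1) was above 0 for 4 of the 7 receptors, beside 53.4% of all 28274 genes, and its median was 0.04. The sign of the 5 low receptors is within their counting error.

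Fold changes in these libraries varied with exon length, so those of CD28 and TMIGD2 are also given beside genes of like length. Across 10570 coding genes at that level the Spearman correlation of the fold change with exon length was 0.45, a description across genes, which are not independent replicates. CD28, with 4885 exon bases, fell in the fifth length class of 10, whose median log2 fold change was -0.06. Of the 1056 other genes of that class (4314 to 5082 bases) 1 had a larger difference than CD28. TMIGD2, with 1262 exon bases, fell in the shortest class (207 to 2141 bases), whose median was -0.31, and 5 of the 1056 other genes had a lower value. Both genes were selected on their difference between these libraries, so extreme ranks follow from that choice and carry no test. With a smooth trend on length and GC content removed, the differences were 0.74 for CD28 and -1.03 for TMIGD2.

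**Figure D3:**
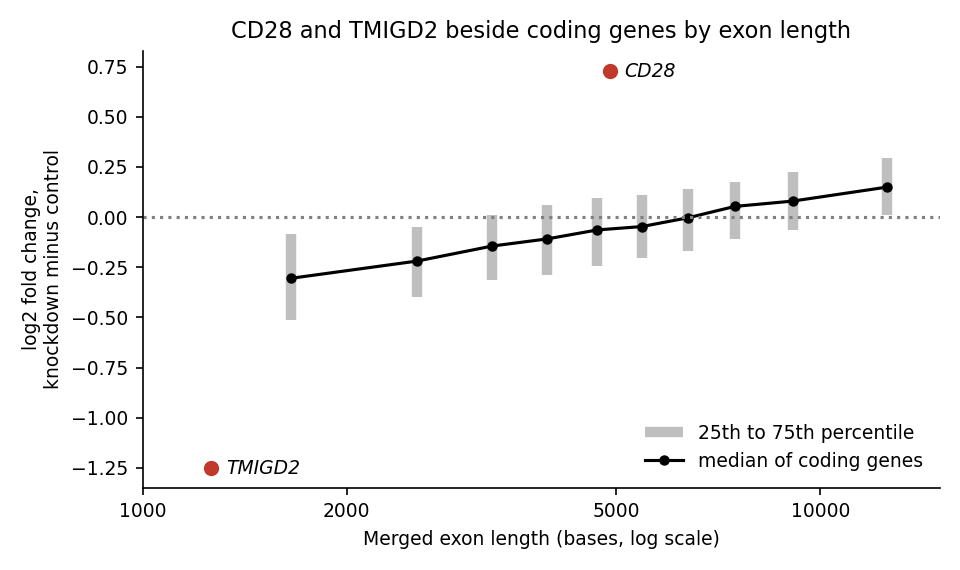
Log2 fold change (knockdown minus control, FPKM + 1) of coding genes in 10 classes of equal size by merged exon length (log axis), as medians with bars from the 25th to the 75th percentile. The class medians go from -0.31 for the shortest to 0.15 for the longest genes, and CD28 (0.73) and TMIGD2 (-1.25), drawn at their own exon length, lie outside the bars of their classes. Both genes were selected on their difference between these libraries.

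CD28, CTLA4 and ICOS lie side by side on chromosome 2 within 255.1 kb, at 203706475 to 203738912, 203867771 to 203873965 and 203936748 to 203961577 (hg38), all on the plus strand. ICOS, 197.8 kb beyond it, had a difference in log2(FPKM + 1) of -0.01. ABI2, a regulator of actin assembly on the other side, had 5.07 and 4.26 FPKM in knockdown and 4.16 and 4.28 FPKM in control libraries (log2 fold change 0.11 ± 0.11 (SE), limma-trend adjusted p = 0.542). RAPH1, which encodes the actin regulator lamellipodin and overlaps ABI2 on the opposite strand, had 0.162 and 0.121 FPKM in knockdown and 0.0257 and 0.0509 FPKM in control libraries. PARD3B, a cell polarity gene beyond ICOS, had 0.246 and 0.259 FPKM in knockdown and 0.191 and 0.207 FPKM in control libraries. Of these 4 neighbours only ABI2 was abundant enough to be tested.

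TMIGD2 lies on chromosome 19 (4292232 to 4302431, minus strand, hg38), head to head with FSD1, which starts 2.17 kb beyond it on the plus strand. FSD1, a protein with fibronectin and SPRY domains, had 12.6 and 15.4 FPKM in the knockdown libraries and 20.2 and 19.3 FPKM in the controls. Its log2 fold change was -0.47 ± 0.13 (SE; limma-trend adjusted p = 0.143). Limma-voom on recovered reads called it lower (adjusted p = 0.0480), and that call ended without knockdown library 1, control 1 or control 2 (adjusted p = 0.124, 0.417 and 0.172) and with summed reads as library size (adjusted p = 0.0951). YJU2, a splicing factor gene 23.1 kb on the other side, had 10.3 and 12.2 FPKM in knockdown and 15.4 and 14.0 FPKM in control libraries (log2 fold change -0.36 ± 0.12 (SE), limma-trend adjusted p = 0.169). Both neighbours had lower means in the knockdown, by less than TMIGD2. ANKRD24, beyond YJU2, had 0.970 and 0.939 FPKM in knockdown and 0.819 and 1.04 FPKM in control libraries. STAP2, an adaptor gene beyond FSD1, had 0.471 and 0.847 FPKM in knockdown and 1.15 and 1.01 FPKM in control libraries.

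The genes with the pattern nearest to each receptor were found among coding genes by the Euclidean distance of centred log2(FPKM + 1) values over the 4 libraries. For CD28 these were BROX, RCAN3, ELK3, KRT72 and CD226, at distances of 0.07 to 0.12. CD226, itself an activating receptor of T and NK cells, had 7.61 and 5.74 FPKM in the knockdown libraries and 3.50 and 3.73 FPKM in the controls. RCAN3, of a family of calcineurin regulators, had 12.5 and 11.1 FPKM in knockdown and 6.44 and 6.62 FPKM in control libraries. ELK3, an ETS transcription factor, had 5.65 and 4.70 FPKM in knockdown and 3.06 and 2.86 FPKM in control libraries. In each of these genes, knockdown library 1 was the higher of the knockdown pair, as in CD28, an order that the choice by distance itself favours.

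For TMIGD2 the nearest were GZMM, TIMM17A, BPNT1, TMED9 and CALR, at distances of 0.14 to 0.18. GZMM, a granzyme of cytotoxic cells, had 4.13 and 5.12 FPKM in the knockdown libraries and 12.8 and 12.0 FPKM in the controls. TMED9, a cargo receptor of the early secretory pathway, had 15.3 and 20.1 FPKM in knockdown and 46.0 and 41.4 FPKM in control libraries. CALR, a chaperone of the endoplasmic reticulum, had 273 and 339 FPKM in knockdown and 708 and 674 FPKM in control libraries. The genes were chosen by their likeness over these 4 libraries, which carries no test.

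The ligands of the receptors were mostly scarce in these cells. Of 9 ligand genes 8 were in the table and 2 averaged at least 1 FPKM. CD70, the ligand of CD27, had 16.4 and 19.4 FPKM in the knockdown libraries and 25.7 and 22.6 FPKM in the controls. The groups did not overlap, and the log2 fold change of -0.41 ± 0.13 (SE) did not pass (adjusted p = 0.160 by limma-trend and 0.0858 by limma-voom). TNFRSF14, which binds BTLA, had 3.89 and 3.996 FPKM in knockdown and 3.48 and 3.23 FPKM in control libraries (limma-trend adjusted p = 0.309). HHLA2, the ligand of TMIGD2, was at or below 0.254 FPKM in each library, and CD80 and CD86, the ligands of CD28, at or below 0.157 FPKM.

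Genes of the pathways around the receptors were examined in 8 lists, of which 79 genes averaged at least 1 FPKM. Limma-trend called 0 of the 79, beside 0.205% of all 13172 genes. At an unadjusted p under 0.05 it had 25 of the 79, or 31.6%, beside 23.4% of all genes. Limma-voom on recovered reads called 9 (4 higher, 5 lower), or 11.4%, beside 7.74% of all genes. With summed reads as library size it called 461 genes in all and 7 list genes, and its number of calls changed widely without any 1 library. The median log2 fold change of the 79 was 0.06, beside -0.03 for all tested genes. List by list, the medians were -0.11 for ligands (2 tested), 0.11 for other TNF receptors (2), -0.15 for other T cell coreceptors (10), 0.08 for CD28 signalling (22), 0.00 for TNF receptor signalling (15), -0.07 for inhibitory signalling and CTLA4 trafficking (10), -0.44 for genes raised by CD28 costimulation (4) and 0.26 for transcription factors (14). The sign of the inhibitory list turned when values were quantile-normalized (0.08) or scaled to summed reads (0.06), and that of the ligands when scaled to summed reads (0.01) or corrected for length and GC content (0.04). The median of other T cell coreceptors was -5.2e-05 after correction for length and GC content, with 5 of the 10 higher. The median of TNF receptor signalling was -0.09 without control 1 and also -0.09 without knockdown library 2.

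**Figure D4:**
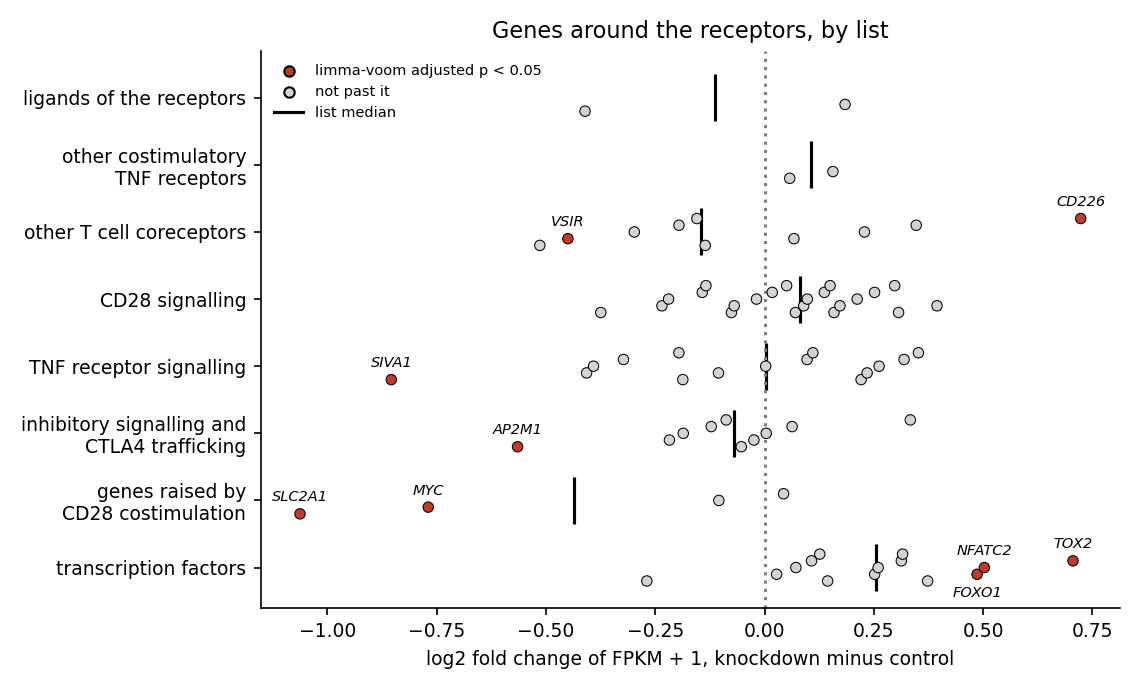
Log2 fold change (knockdown minus control, FPKM + 1) of the 79 tested genes of 8 lists around the receptors. Each point is a gene, vertical bars are list medians, and the 9 named red points passed the recovered-read test (limma-voom adjusted p under 0.05). The red points lie on both sides of 0, and none of the 22 CD28 signalling genes is among them.

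Among the other T cell coreceptors CD226 rose by limma-voom (log2 fold change 0.87 ± 0.15 (SE), adjusted p = 0.0122; limma-trend adjusted p = 0.107). VSIR, the inhibitory receptor VISTA, fell, with 4.15 and 5.09 FPKM in the knockdown libraries and 6.66 and 6.63 FPKM in the controls (limma-voom adjusted p = 0.0494, limma-trend adjusted p = 0.135), a call that ended in 4 of 5 refits (each library left out in turn, and summed reads as library size). CD5 and CD6, scavenger receptors that tune T cell signalling, did not pass. CD5 had 15.7 and 18.4 FPKM in knockdown and 19.8 and 19.4 FPKM in control libraries, and CD6 had 18.3 and 21.0 FPKM in knockdown and 15.9 and 17.3 FPKM in control libraries (limma-voom adjusted p = 0.317 and 0.231). The TNF receptors TNFRSF8 and TNFRSF25 did not pass either (limma-voom adjusted p = 0.814 and 0.444). TNFRSF8 had 4.27 and 5.79 FPKM in knockdown and 4.71 and 4.78 FPKM in control libraries, and TNFRSF25 had 1.20 and 1.28 FPKM in knockdown and 0.912 and 1.11 FPKM in control libraries.

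None of the 22 genes that carry the CD28 signal passed either test, and 3 (13.6%) had an unadjusted limma-trend p under 0.05, beside 23.4% of all tested genes. LCK, the kinase that phosphorylates the receptors, had 229 and 291 FPKM in knockdown and 276 and 269 FPKM in control libraries. GRB2, an adaptor that binds the tail of CD28, had 46.4 and 50.7 FPKM in knockdown and 65.2 and 61.3 FPKM in control libraries (limma-voom adjusted p = 0.0762). Of 15 genes of TNF receptor signalling SIVA1, a protein that binds the tail of CD27, was the single one to pass limma-voom. It fell to 24.3 and 36.2 FPKM in knockdown libraries 1 and 2, against 57.5 and 51.5 FPKM in controls 1 and 2 (limma-voom adjusted p = 0.0196). RELA, a subunit of NF-kappaB, had 23.7 and 27.9 FPKM in knockdown and 29.2 and 30.0 FPKM in control libraries (limma-voom adjusted p = 0.307).

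Of 10 genes of inhibitory signalling and CTLA4 trafficking AP2M1, the clathrin adaptor subunit that takes CTLA4 from the surface, fell, with 50.6 and 66.3 FPKM in the knockdown libraries and 88.0 and 84.4 FPKM in the controls (limma-voom adjusted p = 0.0417). DEF6, which helps recycle CTLA4, had 66.9 and 82.7 FPKM in knockdown and 87.1 and 86.1 FPKM in control libraries and did not pass (limma-voom adjusted p = 0.294). Of genes that CD28 costimulation is known to raise, IL2 was listed at 0 in each library but control 1 (0.161 FPKM). IFNG had 0.0445 and 0.0401 FPKM in the knockdown libraries and was listed at 0 in the controls. Such values rest on very few reads, so no difference between the groups can be read from them. SLC2A1, the glucose transporter GLUT1, and MYC, a growth transcription factor, fell (limma-voom log2 fold change -1.09 ± 0.15 and -0.79 ± 0.13 (SE), adjusted p = 0.00428 and 0.00802). SLC2A1 had 20.9 and 28.4 FPKM in the knockdown libraries and 50.1 and 53.9 FPKM in the controls. MYC had 21.7 and 24.4 FPKM in the knockdown libraries and 42.1 and 37.7 FPKM in the controls. This list has 4 tested genes, and BCL2L1 and CD69 did not pass (limma-voom adjusted p = 0.602 and 0.842). Their log2 fold changes by limma-voom were -0.11 and 0.05. IL2RA averaged below 1 FPKM and was not tested. It had 0.507 and 0.407 FPKM in knockdown and 0.334 and 0.105 FPKM in control libraries. The list therefore did not fall as a whole.

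Of 14 tested transcription factors 13 had higher means in the knockdown libraries (11 to 14 over the alternative settings), or 92.9%, beside 45.7% of all tested genes. The list was chosen with earlier results of these data known, and the share of all genes is not matched for exon length. These shares are therefore a description and carry no test. By limma-voom 3 passed, all higher. TOX2, an HMG-box factor linked to PDCD1 expression, had 4.78 and 4.89 FPKM in the knockdown libraries and 2.53 and 2.62 FPKM in the controls (adjusted p = 0.0178). NFATC2, a calcium-regulated factor, had 7.85 and 6.20 FPKM in knockdown and 4.44 and 4.84 FPKM in control libraries (adjusted p = 0.0363), and FOXO1, a factor restrained by PI3K signalling, 5.40 and 4.65 FPKM in knockdown and 2.89 and 3.74 FPKM in control libraries (adjusted p = 0.0462). LEF1 and GATA3, T lineage factors with the highest levels of the list, did not pass (limma-voom adjusted p = 0.778 and 0.205). LEF1 had 213.8 and 214.2 FPKM in knockdown and 198.9 and 208.4 FPKM in control libraries, and GATA3 124 and 112 FPKM in knockdown and 97.1 and 99.3 FPKM in control libraries. In exon length, the 4 genes that rose by limma-voom span 3223 to 13638 bases and the 5 that fell 3001 to 5128 bases. The part of length in these calls was not tested gene by gene. All 9 genes kept their direction in limma-voom without any 1 library and with summed reads as library size. The calls of CD226 and SLC2A1 held in each of these 5 fits. Of these fits, that without knockdown library 2 called far more genes in all than the fit of all libraries, and each other fit called fewer. Without knockdown library 1 the calls of VSIR, SIVA1, AP2M1, NFATC2, TOX2 and FOXO1 ended (adjusted p = 0.0608 to 0.161), and without knockdown library 2 none of the 9 did. Without control 1 the calls of VSIR, SIVA1, AP2M1, MYC, NFATC2, TOX2 and FOXO1 ended (adjusted p = 0.0562 to 0.525). Without control 2 those of VSIR, AP2M1 and NFATC2 ended (adjusted p = 0.0865 to 0.197), and with summed reads those of VSIR, AP2M1, NFATC2 and FOXO1 (adjusted p = 0.0530 to 0.101).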

How the data were processed

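Total RNA of 2 FYB1 knockdown and 2 control libraries was sequenced. HISAT2 2.0.5 and build hg38 are named in the submitters' processing notes. The sources used here do not name the counting program, annotation or strand setting. The deposited values are FPKM made by the authors; the table names no unit, which was read from its values. Multiplied by merged exon length (GENCODE 29), 100% of values were whole multiples of a library's own step (tolerance 0.001), which gave back whole reads and the authors' totals. These totals are not plain sums of the recovered reads. The reads exceeded them in controls 1 and 2 (17597678 against 16648943 and 17216663 against 16789004). They fell short of them in knockdown libraries 1 and 2 (16693113 against 18436617 and 20251864 against 20480491). This difference between the groups enters every FPKM value and ratio, and its source was not tested.

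Limma-trend (limma 3.58.1, R 4.3.3) on log2(FPKM + 1) was the main test, over the 13172 genes averaging 1 FPKM or more, with group as single term, Benjamini-Hochberg adjustment and a threshold of 0.05. This scale understates fold changes of low genes. Limma-voom was run on recovered reads, with library sizes set to the authors' totals. Both were also run on simulated counts with a fixed dispersion and no trend of fold change with exon length. That run therefore does not show how the tests behave on these libraries.

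The receptors and lists were chosen with earlier results of these data known. Named were every receptor, FYB1, list genes past either test, the 2 most abundant genes of each list, the 2 nearest coding genes of the table on each side of CD28 and TMIGD2, and 5 genes of nearest pattern to each. CD80, CD86, HHLA2, IL2, IL2RA, IFNG, BCL2L1, CD69, CD27-AS1 and the markers CD3D and CD79A were named after their values were seen. Membrane segments were taken as the most hydrophobic 19 residues after residue 60.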

Additional observations from a re-analysis of the deposited data

How the results depend on the processing

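CD28 stayed above and TMIGD2 below 0 under all 14 alternatives, with log2 fold changes of 0.50 to 0.85 and -1.44 to -0.82. The extremes nearest 0 came with a pseudocount of 5. The filters and the replicate blocks could not move these values. The other settings reuse libraries on which both genes were selected, so the shared sign is no independent support. The number of receptors with a higher mean (4 of 7) was 2 under quantile normalization, 3 by limma-voom, 5 with summed reads, 6 after correction for length and GC and 2 to 5 without any 1 library. The number of genes past the threshold (27) was 1019 by limma-voom, 51 with quantile normalization, 76 with summed reads as total, 0 with no filter, 181 with a mean of at least 5 FPKM, 260 after correction for length and GC, and 0 to 406 without any 1 library. Of list genes (0) it was 9 by limma-voom, 2 with a mean of at least 5 FPKM, 3 after that correction and 0 to 3 without any 1 library. With a replicate block 781 genes and 6 list genes passed. Across tested genes, library 1 minus library 2 of the knockdown group had a correlation of -0.21 with that of the control group. With 2 libraries a group this cannot decide whether equal numbers share a culture or day. A crossed replicate block called 1910 genes and 11 list genes. The fold change of FYB1 was -1.65 with no filter, where the call ended (adjusted p = 0.264), and -1.84 to -1.46 without any 1 library. The cause of these changes was not tested. CD5 turned to 0.0023 and DEF6 to 0.012 after correction for length and GC, DEF6 to 0.081 under quantile normalization, and LCK to 0.34 under quantile normalization, 0.062 with summed reads and 0.11 after correction for length and GC. Without any 1 library LCK ranged from -0.249 to 0.098 and TNFRSF8 from -0.125 to 0.241. The sum of reads moved the median of all genes to 0.08, against -0.03. The corrections for length and GC, the crossed block and the refits of limma-voom were chosen after seeing the data. Depth limits ICOS, PDCD1, BTLA, CD27 and TNFRSF4, with at most 26 reads a library.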
